A study of Mus musculus with 25 samples.

Results

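The 10 genes described here, Zbtb16, Gfra1, Nanos3, Lin28a, Kit, Stra8, Dmrt1, Sohlh1, Uchl1 and Id4, are used to mark the stem, progenitor and differentiating states of mouse spermatogonia. They were chosen by name and make up 10 of the 29244 genes in the count tables. All 10 had UMIs, between 89 for Lin28a and 4960 for Id4 over the 25 libraries, and all 10 were tested in each comparison. The tables came from Drop-seq, a droplet method that tags the 3′ end of each captured transcript with a unique molecular identifier (UMI) and a cell barcode, and they held 48642 barcodes and 65063387 UMIs. Levels are given as CPM, a gene's UMIs scaled to the total UMIs of its library or cell class, and their intervals cover counting error only. The methods give the 11 wild-type libraries as 11 animals. For the other strains no source says that each library came from its own animal, and Mlh3 2 and Mlh3 3 carry the same age, so p-values may there measure technical spread.

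The comparison that frames these genes is between sorted spermatogonia of juvenile mice and the germ cell stages of the adult testis. The sorted spermatogonia formed 1 library. They were GFP-positive cells of a Pou5f1-EGFP reporter at postnatal day 7, before the first wave of meiosis reaches pachytene, and came from the pooled testes of 5 litter mates, dissociated with enzymes. The labels spell the genotype Pouf51-EGFP on C57BL/6, whereas the methods give the reporter as B6;CBA-Tg(Pou5f1-EGFP)2Mnn/J. Primary spermatocytes, secondary spermatocytes and spermatids were each 1 library sorted by Hoechst staining from wild-type C57BL/6 mice aged 2 months 21 days. Whole testis was profiled in 11 wild-type C57BL/6 libraries (WT 1 to WT 11, ages 3 months 1 day to 9 months 14 days), 6 libraries labelled Mlh3-/- on B6;129 (2 months 21 days to 8 months 30 days), 2 labelled Cul4a-/- on B6;129 (1 month 18 days and 1 month 21 days) and 2 of the CNP eGFP BAC TRAP transgene on C57BL/6 (2 months 14 days and 2 months 16 days). The ages of the Cul4a-/- and CNP eGFP libraries are those of the labels, and a list in the study's supplement has the ages of these strains the other way round, which was not resolved. WT 1 and WT 2 were dissociated with enzymes and all other whole-testis libraries mechanically. Strain background and genotype cannot be told apart for Mlh3-/- and Cul4a-/-. By either list of ages, the Cul4a-/- and CNP eGFP libraries were younger than every wild-type whole-testis library. For these 2 strains age and genotype cannot be told apart. The day-7 sort differs from adult testis in age, genotype, dissociation and sorting together.

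Spermatogonia lie on the basement membrane of the seminiferous tubule. The undifferentiated pool self-renews under GDNF, a growth factor from somatic cells that signals through RET and its co-receptor GFRA1, and is marked by the transcription factor ZBTB16 (PLZF), the inhibitor of helix-loop-helix factors ID4, and the RNA-binding proteins NANOS3 and LIN28A. Retinoic acid then drives the step to differentiating spermatogonia, which need the receptor tyrosine kinase KIT and the helix-loop-helix factor SOHLH1, and it induces STRA8. The study names Stra8 both with Kit in its likely differentiating spermatogonia and in its (pre)leptotene cells. DMRT1 is a transcription factor of spermatogonia and Sertoli cells that holds back meiotic entry, and UCHL1 is a ubiquitin hydrolase found in spermatogonia and in neurons.

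On GRCm38, GENCODE vM21 places Zbtb16 at chr9:48654297-48836222, Gfra1 at chr19:58235604-58455909, Nanos3 at chr8:84173731-84185217, Lin28a at chr4:134003330-134018841, Kit at chr5:75574916-75656722, Stra8 at chr6:34920163-34939344, Dmrt1 at chr19:25505618-25604329, Sohlh1 at chr2:25842995-25847248, Uchl1 at chr5:66676091-66687234 and Id4 at chr13:48261228-48266026. Exons of Gfra1, Lin28a, Uchl1 and Id4 overlap exons of a gene on the opposite strand (Gm16277, Gm13061, Uchl1os, and both A330033J07Rik and Gm49291). Whether the counting used strand is not given in the sources used here, so for these 4 genes reads of either partner could have entered the count.

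Promoters of 3 of the genes are shown, picked after their levels were seen. Sohlh1 and Stra8 were higher in spermatogonia-like than in pachytene-like cells, Stra8 also in leptotene/zygotene-like cells, and Id4 was highest in pachytene-like cells. Each line gives the 250 bases upstream of the RefSeq start (GRCm38.p6), 5′ to 3′ on the gene's strand. Capitals mark the motifs searched on both strands: the E-box CANNTG, bound by helix-loop-helix factors, with CACGTG as a special case of it, the GC box GGGCGG, and AGGTCA, the hexamer of retinoic acid receptor sites. The Sohlh1 promoter lies on the minus strand at chr2:25847249-25847498, the Stra8 promoter on the plus strand at chr6:34920698-34920947, which is inside the longer GENCODE gene model, and the Id4 promoter on the plus strand at chr13:48260866-48261115.
Sohlh1: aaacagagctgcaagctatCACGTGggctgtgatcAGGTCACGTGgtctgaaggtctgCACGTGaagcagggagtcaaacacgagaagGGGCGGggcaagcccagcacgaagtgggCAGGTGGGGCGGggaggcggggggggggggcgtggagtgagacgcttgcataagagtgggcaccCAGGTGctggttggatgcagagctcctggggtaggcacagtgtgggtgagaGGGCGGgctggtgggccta
Stra8: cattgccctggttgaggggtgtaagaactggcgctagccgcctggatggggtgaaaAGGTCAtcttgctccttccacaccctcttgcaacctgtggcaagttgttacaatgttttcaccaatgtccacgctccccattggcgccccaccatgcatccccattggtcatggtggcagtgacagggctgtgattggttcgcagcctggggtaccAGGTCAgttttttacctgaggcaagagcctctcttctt
Id4: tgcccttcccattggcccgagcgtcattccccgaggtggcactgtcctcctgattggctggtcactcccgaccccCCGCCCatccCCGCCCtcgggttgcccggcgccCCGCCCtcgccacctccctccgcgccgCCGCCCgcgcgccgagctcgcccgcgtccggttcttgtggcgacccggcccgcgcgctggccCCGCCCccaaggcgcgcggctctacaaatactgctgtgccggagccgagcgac

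The Sohlh1 window held 5 E-boxes, 3 of them CACGTG, along with 3 GC boxes and 1 AGGTCA that overlaps a CACGTG. The Stra8 window held 2 copies of AGGTCA and 0 E-boxes, and the Id4 window held 5 GC boxes and 0 E-boxes. Of 32851 RefSeq promoter windows of the same length, 66.2% held a CANNTG, 6.02% a CACGTG, 32.7% a GC box and 14.0% an AGGTCA. Promoters were matched for 8 of the 10 genes. These are letter matches only.

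The libraries differed in depth and make-up in ways that touch the values below. Library totals ran from 107117 UMIs in the sorted primary spermatocytes to 9745302 in Cul4a 2, and 36618 cells passed the cell filters. The same barcode sequence occurred in both libraries of 204 of the 300 library pairs, at most 27 barcodes and 1.35% of the smaller library. In the sorted secondary spermatocytes the elongating spermatid markers summed to 62159 CPM and the meiotic division markers to 1477 CPM, and 75 filtered cells were elongating spermatid-like against 17 meiotic division-like, which goes against that label. The 6 libraries labelled Mlh3-/- held 0 round or elongating spermatid-like cells. The tag at the 3′ end of Mlh3 was not lower in them (median 47.5 CPM, against 47.4 in wild-type), nor was that of Cul4a in the Cul4a-/- libraries (51.8 against 36.3), and since the deleted parts are not given in the sources used here, these tags check nothing about the genotypes.

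In the day-7 sort, 9 of the 10 genes stood at least 4-fold above the mean of the 11 wild-type testis libraries, and Id4 alone did not. Over all 20630 genes compared, 32.8% were at least 4-fold higher in the sort and 14.6% at least 4-fold lower. With 1 sorted library these differences have no replicate check and no test. Markers of spermatogonia were present throughout the sort: 26 of the 26 spermatogonia markers measured had UMIs (summed 3939 CPM), and 212 of its 224 filtered cells fell in the spermatogonia-like cluster. A further 9 cells were Sertoli-like and 3 telocyte-like. Sertoli markers summed to 2002 CPM (14 of 14 with a UMI), telocyte markers to 253 CPM (13 of 13), Leydig markers (4 of 7 with a UMI) to 18.0 CPM and pachytene markers (20 of 20) to 6810 CPM, against 38285 CPM in the sorted primary spermatocytes. Leptotene/zygotene markers summed to 2525 CPM (24 of 24), against 984 CPM over the wild-type libraries together. Their part in the levels below was not tested. Pou5f1, the gene whose promoter drives the reporter, was at 20.5 CPM.

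The markers of the undifferentiated pool covered a wide range in the sort. Zbtb16 was at 225 CPM (95% Poisson interval 199 to 254), against 0 to 2.35 CPM with a median of 0.894 in the 11 wild-type libraries, a 218-fold difference. Lin28a was at 48.8 CPM (36.9 to 63.2), and in wild-type it reached 0.522 CPM at most and was at 0 in 6 of the 11 libraries. The sort stood 270-fold above the wild-type mean, a ratio that rests on 6 Lin28a UMIs in all of wild-type, none of them in the 2 enzymatic libraries.

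Nanos3 was at 50.5 CPM (38.4 to 65.1) in the sort and at 0 to 5.60 CPM with a median of 1.40 in wild-type testis, 26.5-fold lower in the mean. Gfra1, the GDNF co-receptor, was at 17.1 CPM (10.5 to 26.4), only 6.04-fold above the wild-type mean, whose libraries ran from 0 to 5.22 CPM with a median of 3.10. For all 4 of these genes the sorted library stood above each of the 11 wild-type libraries.

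Id4 did not follow them. It was at 40.2 CPM (29.6 to 53.5) in the sort, inside the wild-type range of 17.9 to 60.5 CPM with a median of 51.2, and its fold was 0.898. The low end of that range was the 2 enzymatic libraries (17.9 and 22.4 CPM), and against these alone the fold was 2.00. Those libraries were digested with collagenase, trypsin and DNase, whereas the sort had a trypsin protocol of its own. Among the adult sorts Id4 was at 74.7 CPM (32.2 to 147) in primary spermatocytes, 15.3 CPM (4.16 to 39.1) in the library labelled secondary spermatocytes and 12.6 CPM (2.61 to 37.0) in spermatids.

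The genes of differentiation were all far above testis. Stra8 was at 563 CPM (521 to 608) in the sort against 1.17 to 47.6 CPM with a median of 2.33 in wild-type testis. Kit was at 137 CPM (117 to 160) against 0 to 3.92 CPM with a median of 2.90. Sohlh1 was at 269 CPM (240 to 300.1) against 0 to 3.16 CPM with a median of 2.71. The folds over the wild-type mean were 60.2 for Stra8, 52.7 for Kit and 111 for Sohlh1, and no wild-type library reached the level of the sort.

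Dmrt1 was at 557 CPM (515 to 602) in the sort, 112-fold over a wild-type range of 1.81 to 8.40 CPM with a median of 5.36. Uchl1 was at 886 CPM (833 to 941), 53.7-fold over a range of 6.21 to 42.0 CPM with a median of 13.8. In the 3 adult sorts Zbtb16 had 0 UMIs, and the other 8 genes besides Id4 had at most 4 UMIs in any library, so that most of their levels there lie near or under the floor of 3 counts, which is 11.4 to 28.0 CPM in these libraries.

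**Figure D1:**
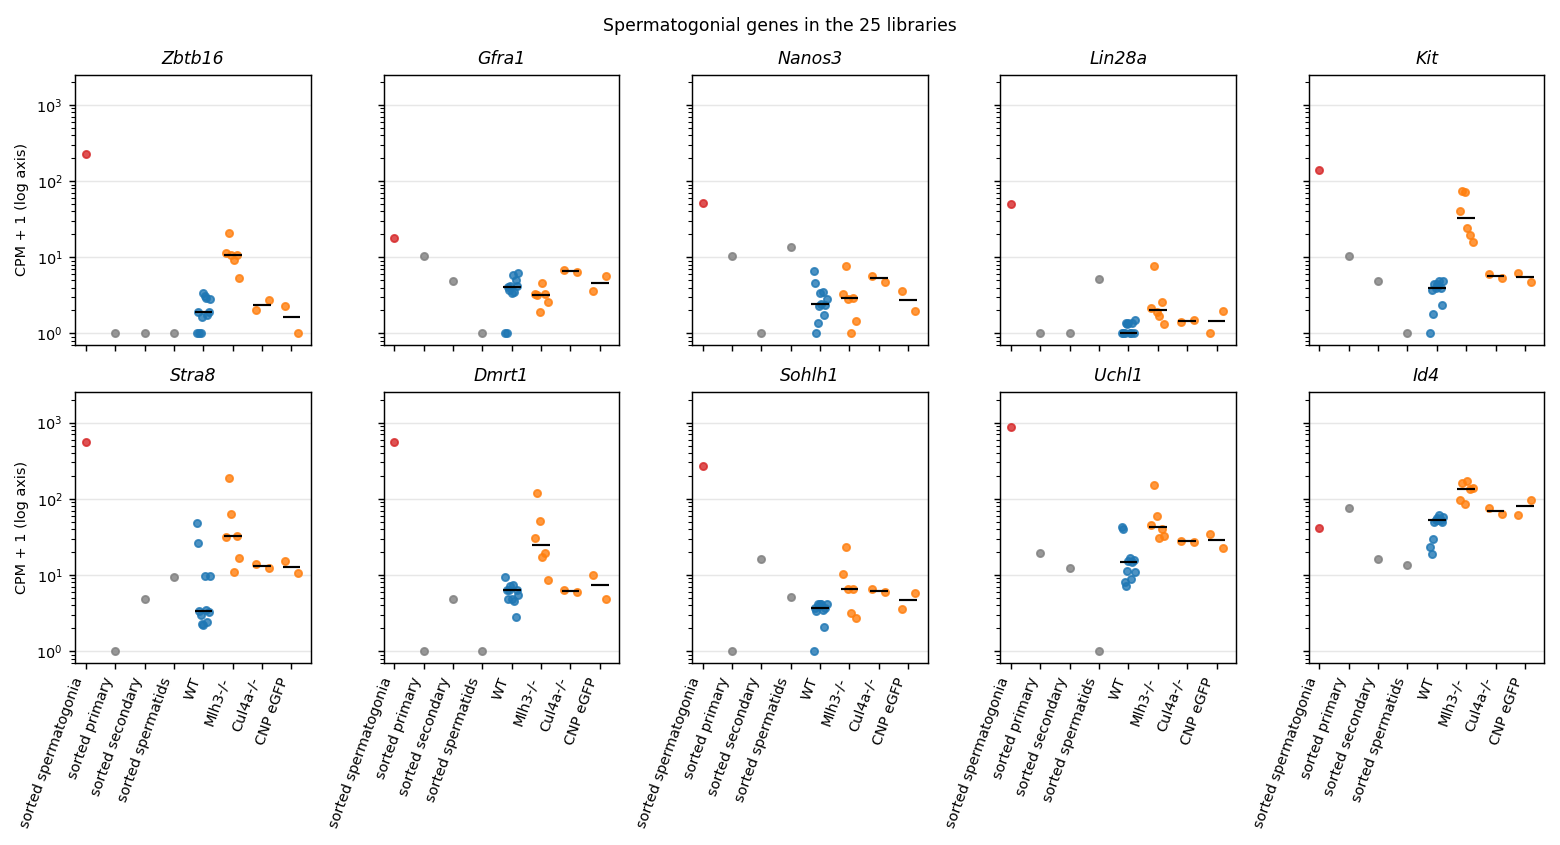
Levels of the 10 genes in the 25 libraries, as CPM + 1 on a log axis, with 1 point per library and black lines at group medians. Red is the day-7 sort, grey the 3 adult sorts, blue wild-type testis and orange the other strains. For every gene but Id4 the sort lies above all wild-type libraries, and Zbtb16, Kit and Id4 in Mlh3-/- lie above all of wild-type. The share of all genes that separate in either way was not counted.

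The way the testis was dissociated moved with some of these levels within wild-type. The 2 enzymatic libraries held Stra8 at 25.03 and 47.6 CPM and Uchl1 at 39.3 and 42.0 CPM, whereas the 9 mechanical libraries reached 8.78 and 15.8 CPM at most, so the groups did not overlap. Nanos3 was also higher (3.58 and 5.60 CPM, against 2.49 CPM at most), and Id4 was lower (17.9 and 22.4 CPM, against 28.7 to 60.5 CPM). How many of all genes separate these libraries in this way was not counted. WT 1 and WT 2 were also the smallest wild-type libraries (102 and 598 barcodes, against 1491 to 2996). Gfra1 had 0 UMIs in both enzymatic libraries, whose upper 95% limits of 10.3 and 3.30 CPM overlap the 2.35 to 5.22 CPM of the mechanical ones. The sort was itself dissociated with enzymes, but by a trypsin protocol other than that of WT 1 and WT 2. Against the 2 enzymatic libraries alone its folds were 15.5 for Stra8, 21.8 for Uchl1 and 11.01 for Nanos3 (6 wild-type UMIs), and against the 9 mechanical libraries they were 167, 79.6 and 38.4. Against the mechanical libraries 9 genes were at least 4-fold higher. Against the enzymatic ones 2 of these 9 had 0 UMIs to compare with, and their folds are bounds over a floor of 3 counts in both libraries together, at least 4.58 for Lin28a and at least 3.07 for Gfra1 on the log2 scale. Zbtb16, Kit and Sohlh1 had 1, 3 and 3 UMIs there, and their ratios over pooled counts were 332 (95% counting interval 59.1 to 13170), 67.4 (22.6 to 330.1) and 132 (44.8 to 645).

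Within the sort, the 212 spermatogonia-like cells (968 to 25346 UMIs, median 3887) carried between 0 and 9 of the 10 genes, with a median of 4, and 5 cells carried none. Uchl1 had a UMI in 89.6% of the cells (95% exact binomial interval 84.7 to 93.4) and Dmrt1 in 78.8% (72.6 to 84.1). Sohlh1 was seen in 56.6%, Zbtb16 in 47.6%, Stra8 in 46.7% and Kit in 38.7% of cells. Nanos3 and Lin28a were each seen in 17.5%, Id4 in 11.8% and Gfra1 in 5.19%. In elongating spermatid-like cells, taken as a class that should lack most of these genes, with a median depth of 912 UMIs, the share ran from 0 of 4781 cells for Lin28a (an upper exact limit of 0.0771%) to 3.01% for Uchl1, and was 2.93% for Id4. Thinned to 300 UMIs a cell, Id4 was seen in 3 of 212 cells of the sort (1.42%) and in 0.485% of 4533 spermatid-like cells.

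Stra8 had a UMI in 68.3% of the 82 cells with Kit, against 46.7% of all cells. The cells with Kit were deeper than all cells (median 4777.5 against 3887 UMIs). With each cell thinned to 2000 UMIs (165 cells), Stra8 was seen in 20 of 39 cells with Kit (51.3%), against 37.0% of all. Single cells held up to 43 Stra8 UMIs, while the most for any of the other 9 genes was 26, for Uchl1.

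Of the 37 cells with Nanos3, 83.8% had Zbtb16, against 47.6% of all cells, and 45.9% had Lin28a, against 17.5%. All 11 cells with Gfra1 had Dmrt1, against 78.8% of all cells, and 9 of the 11 had Zbtb16. Id4 was seen in 6 of the 11, against 11.8% of all cells. The cells with Nanos3 or Lin28a were the deeper ones (median 7108 and 7339 UMIs), which raises the chance of seeing any second gene. After thinning, Zbtb16 was seen in 7 of 14 cells with Nanos3 and in 4 of 14 cells with Lin28a (28.6%), against 32.1% of all, and Lin28a in 2 of 14 cells with Nanos3 (14.3%), against 8.48% of all. Id4 was then seen in 1 of 4 cells with Gfra1, against 6.67% of all.

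Kit was seen in 6 of the 37 cells with Nanos3 (16.2%), 11 of the 37 cells with Lin28a (29.7%) and 35 of the 101 cells with Zbtb16 (34.7%), against 38.7% of all cells. In the thinned cells Kit was seen in 6 of 53 cells with Zbtb16 (11.3%) and 0 of 14 cells with Nanos3, against 23.6% of all, and in 4 of 14 cells with Lin28a (28.6%). These shares describe the cells of 1 library, and no test was made across cells.

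**Figure D2:**
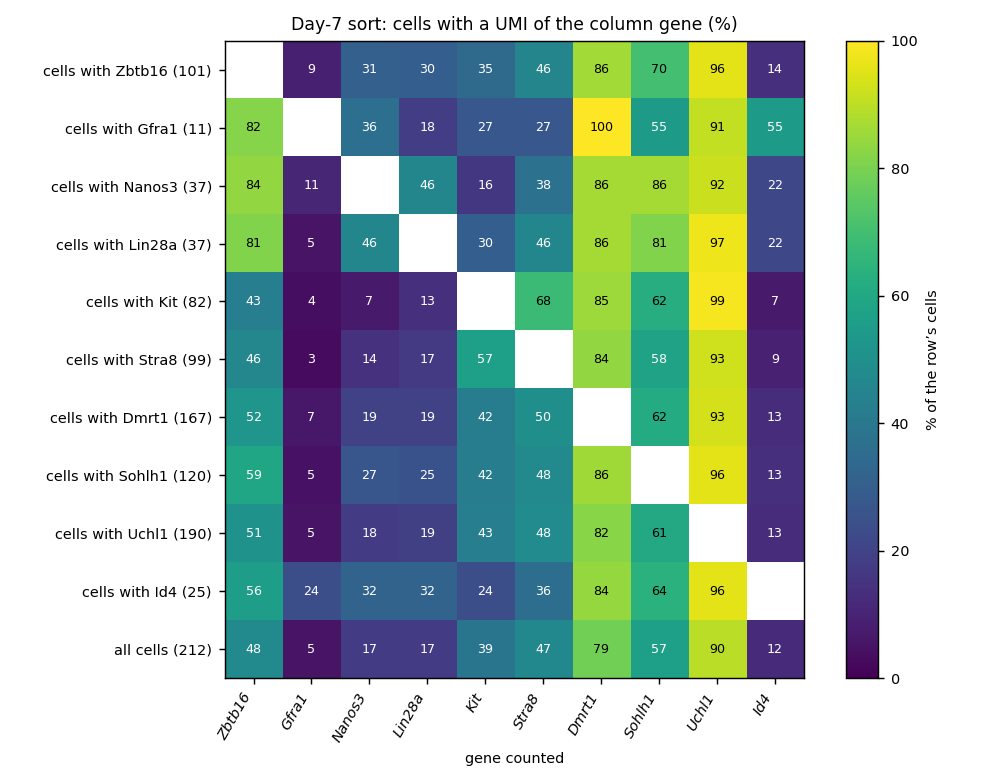
Share of cells with a UMI of the column gene (in %, colour and number) among the cells of the day-7 sort that carry the row gene, with the number of such cells in brackets and all 212 cells in the bottom row. Kit is seen in 16% of the cells with Nanos3, and Stra8 in 68% of the cells with Kit.

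To place the genes along adult spermatogenesis, filtered cells were grouped without these 10 genes or their pathway genes, and clusters were named from other markers. The spermatogonia-like class was a single cluster of 340 cells, of which 212 came from the sort and 127 from whole testis. Levels were compared over sums of at least 10 cells of a class in a library. Of the whole-testis cells, 19797 stayed unnamed, among them many with few UMIs. Doublets were not removed.

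Spermatogonia-like sums were available from 5 whole-testis libraries (Cul4a 1 and 2 and Mlh3 2, 5 and 6, 72 cells in all), since no wild-type library held more than 5 such cells. In these adult sums Stra8 was at 779, 1397, 783, 1206 and 1066 CPM. All 5 lay above the 604 CPM (558 to 654) of the spermatogonia-like cells in the day-7 sort, the only gene of the 10 for which the sort fell outside the adult range. The share of all genes outside that range was not counted. The class is 1 joint cluster in which 212 of 340 cells are the sort, so likeness of its adult and day-7 cells is in part built in. Zbtb16 was at 222 CPM in the sort and at 0, 224, 136, 186 and 44.4 CPM in the adult sums.

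For the others the ranges also enclosed the sort. Uchl1 was at 963 CPM there and 613 to 1397 CPM in the adult sums, Dmrt1 at 566 against 133 to 650 CPM, Sohlh1 at 294 against 102 to 371 CPM, and Kit at 138 against 23.6 to 204 CPM. Nanos3, Lin28a and Id4 were at 56.2, 53.3 and 44.6 CPM, inside adult ranges that rest on 0 to 4 UMIs a sum. Pooled over all 11 wild-type libraries, the 28 spermatogonia-like cells held 39 UMIs of Stra8 (870 CPM), 47 of Uchl1 (1049 CPM), 27 of Dmrt1 (602 CPM) and 0 of Lin28a. They also held 5 UMIs of Gfra1 in 2 cells (112 CPM, 95% interval 36.2 to 260), against 13.6 CPM in the sort, and the 5 adult sums of the other strains held 1 UMI of Gfra1 between them.

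**Figure D3:**
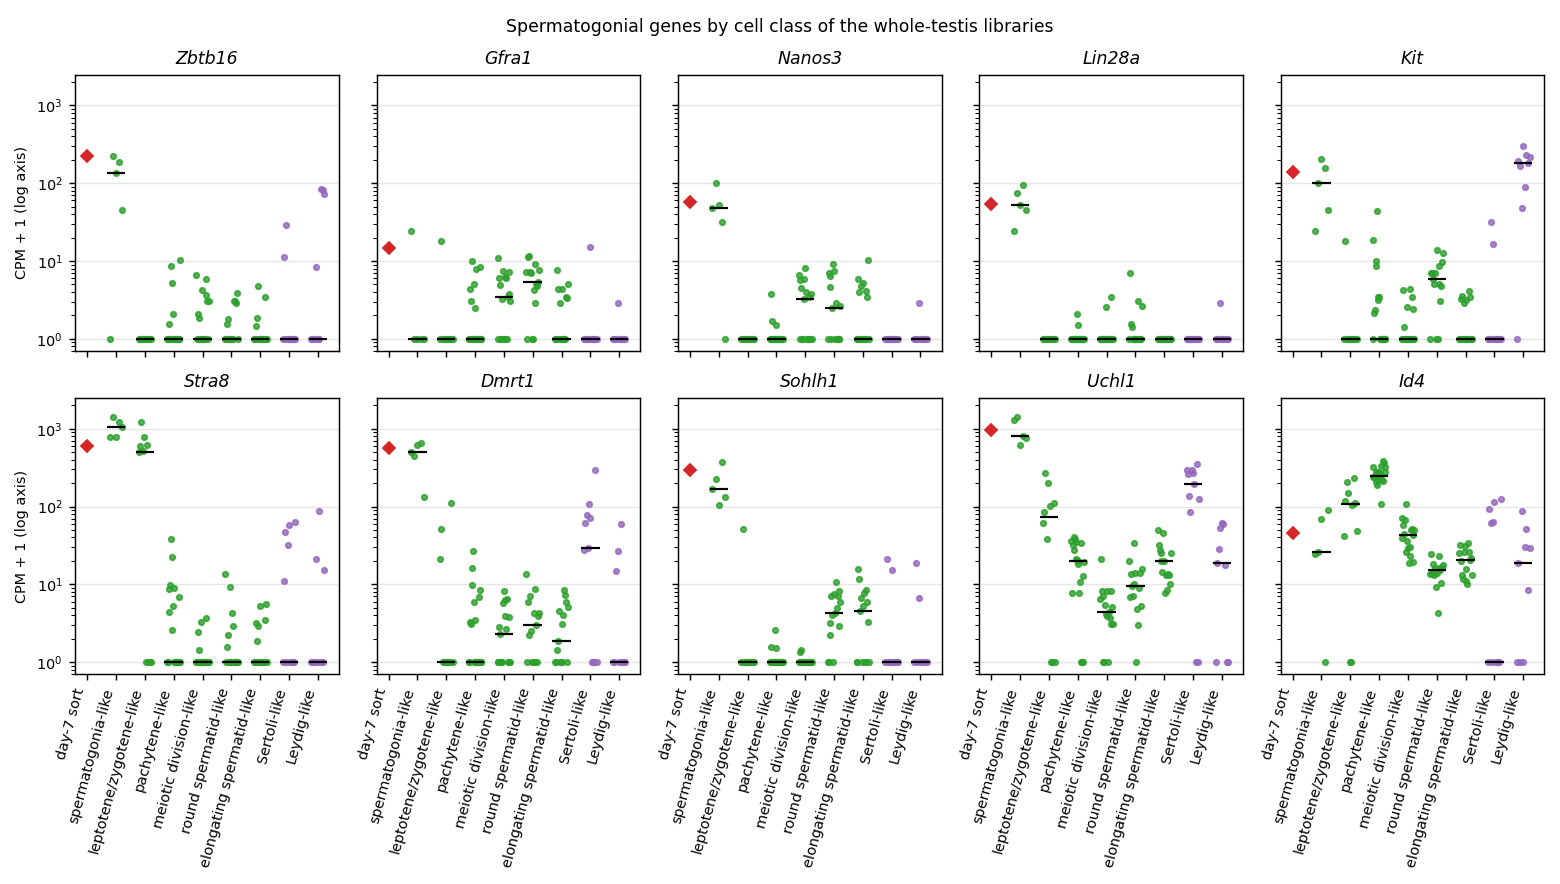
Levels of the 10 genes in cell classes of whole testis, as CPM + 1 on a log axis, with 1 point per library and class sum of at least 10 cells and black lines at medians. The red diamond is the spermatogonia-like cells of the day-7 sort, green points are germ cell classes and purple points somatic classes. Id4 peaks in pachytene-like sums, Stra8 extends into leptotene/zygotene-like sums, and Kit recurs in Leydig-like sums.

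Against pachytene-like cells of the same libraries, 9 of the 10 genes passed the test in spermatogonia-like cells (edgeR's quasi-likelihood test with library as a block, Benjamini-Hochberg adjusted p under 0.05). Among all 21862 genes tested, 7.56% were called higher and 16.3% lower. The 8 that rose did so by log2 fold changes of 3.69 (Kit) to 7.09 (Sohlh1). These sizes depend on the scaling and the tool: with total counts in place of TMM factors Kit gave 4.70, Sohlh1 8.23 and Id4, the gene that fell, -2.67, with the calls kept. DESeq2 gave 5.58, 8.61 and -2.14 for these 3 genes, all called. Sohlh1 went from a median of 0 CPM in pachytene-like sums (3 of 19 sums with a UMI) to 165 CPM (SE of the log2 fold 0.59, adjusted p = 1.37e-30). Each SE of an edgeR fit was derived as the absolute log2 fold over the square root of the test's F value. Stra8 rose by 6.26 (SE 0.27, adjusted p = 3.80e-118) and Dmrt1 by 6.40 (SE 0.37, adjusted p = 2.15e-64).

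Zbtb16 rose by 6.02 on the log2 scale (SE 0.71, adjusted p = 7.75e-16), Lin28a by 5.54 (SE 1.07, adjusted p = 2.77e-06) and Nanos3 by 4.20 (SE 0.92, adjusted p = 4.61e-05). They had 24, 11 and 10 UMIs in the 5 spermatogonia-like sums, and DESeq2 did not call Lin28a (adjusted p = 0.424). Without Cul4a 2 the calls held at lower values, 4.73 for Zbtb16, 4.65 for Lin28a, 3.13 for Nanos3 (adjusted p = 0.0336), 5.52 for Stra8, 6.43 for Sohlh1 and 3.06 for Kit. Uchl1 rose by 4.34 (SE 0.22, adjusted p = 3.52e-82). Gfra1, with 1 UMI in the 5 sums, gave 0.77 (SE 1.54, adjusted p = 0.917), and a difference was not detectable at this depth.

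Id4 ran the other way. Its median was 24.9 CPM in spermatogonia-like sums (0 to 88.9, n = 5), 106 CPM in leptotene/zygotene-like sums (0 to 229, n = 10) and 249 CPM in pachytene-like sums (106 to 382, n = 19). It then stood at 41.7 CPM in meiotic division-like sums (17.8 to 107, n = 17), 14.1 CPM in round spermatid-like sums (3.29 to 23.8, n = 15) and 19.6 CPM in elongating spermatid-like sums (9.23 to 33.2, n = 15). Every pachytene-like sum lay above every spermatogonia-like sum. The fall from pachytene-like to spermatogonia-like cells was -3.64 (SE 0.39, adjusted p = 1.30e-18), that to leptotene/zygotene-like cells -2.21 (SE 0.28, adjusted p = 1.33e-13) and that to round spermatid-like cells -3.58 (SE 0.16, adjusted p = 5.44e-116). Without Mlh3 2 the first was -4.34. The fall to leptotene/zygotene-like cells did not hold when cells were kept by UMI and gene number alone (0.19, adjusted p = 0.452). Of all Id4 UMIs in filtered whole-testis cells, 53.4% lay in pachytene-like cells (26.0% in wild-type alone) and 0.207% in spermatogonia-like cells.

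Among the 10 genes Stra8 had the highest median in leptotene/zygotene-like sums. That median was 507 CPM, with a UMI in 6 of 10 sums and a highest value of 1217 CPM, and in pachytene-like sums its median was 0 (at most 37.7 CPM). It rose by 5.87 on the log2 scale in leptotene/zygotene-like over pachytene-like cells (SE 0.29, adjusted p = 1.89e-90). Of the 10 genes 4 were called in this contrast, against 19.6% of all genes (6.28% higher and 13.3% lower). Sohlh1 (3.22, SE 1.19, adjusted p = 0.0366) and Dmrt1 (2.29, SE 0.82, adjusted p = 0.0303) were the other 2 that rose, on 3 and 6 UMIs. Without Cul4a 2, which holds all 3 of those Sohlh1 UMIs, the fit gave -0.80 for Sohlh1 and 1.56 for Dmrt1 (adjusted p = 0.400), and neither was called. In all, the Dmrt1 call was lost on leaving out any of 3 libraries and in 5 other settings. Zbtb16, Nanos3 and Lin28a had 0 UMIs in all 10 leptotene/zygotene-like sums (198 cells).

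**Figure D4:**
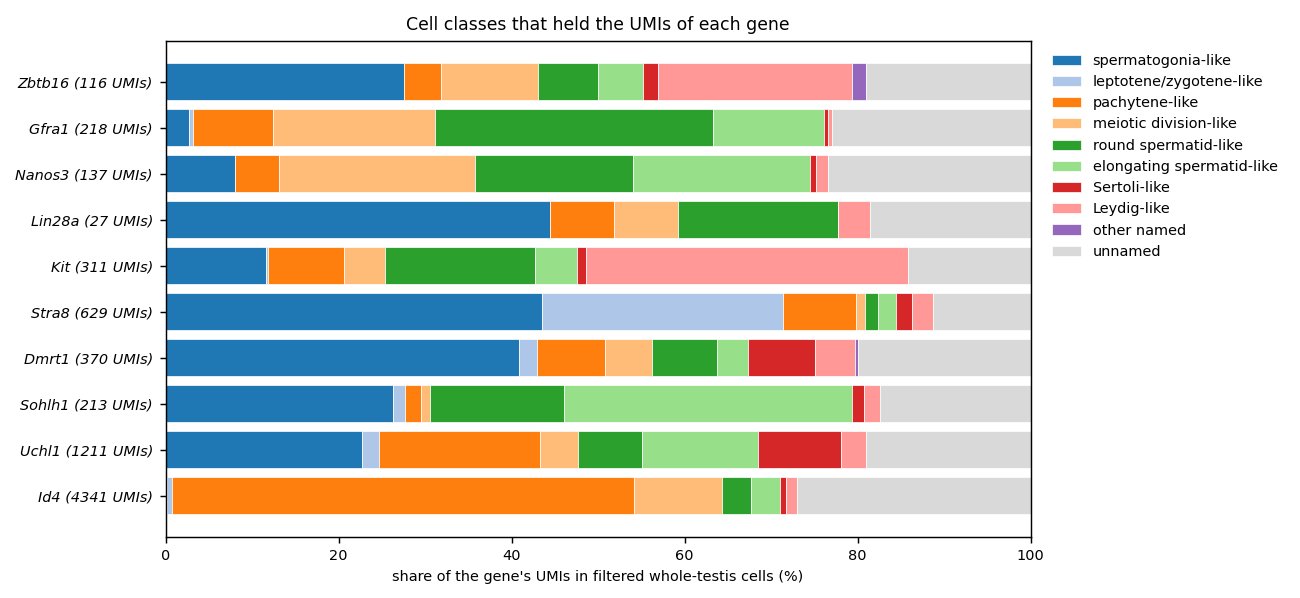
Share of each gene's UMIs (in %) in filtered whole-testis cells by cell class, with the gene's UMI total in brackets. Spermatogonia-like cells hold 43.6% of the Stra8 UMIs and 0.207% of the Id4 UMIs, and Leydig-like cells hold 37.3% of the Kit UMIs, pooled over strains.

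Part of the signal of these genes lay outside spermatogonia, in somatic cells. Kit, which Leydig cells are also known to carry, had a median of 178 CPM in Leydig-like sums (0 to 303, a UMI in 8 of 9 sums) and 99.8 CPM in spermatogonia-like sums (23.6 to 204, n = 5), and the groups overlapped. It rose by 5.29 in Leydig-like over pachytene-like cells (SE 0.34, adjusted p = 1.96e-52). Zbtb16 rose there by 5.11 (SE 0.67, adjusted p = 4.02e-13), with UMIs in 4 of 9 sums and up to 82.8 CPM. Of the 10 genes 3 were called in Leydig-like cells, with Id4 lower (-2.80, SE 0.26, adjusted p = 3.66e-26), against 33.5% of all genes (15.6% higher and 17.9% lower). Without Mlh3 1, which holds 386 of these cells, Id4 gave -4.34, and without Mlh3 3 Kit gave 6.03. The Mlh3-/- libraries held 582 of the 711 Leydig-like cells of whole testis. Leydig-like cells held 62.3% of the Kit UMIs of filtered cells in Mlh3-/- and 7.69% in wild-type, where round spermatid-like cells held 38.5%.

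In Sertoli-like cells 4 of the 10 were called, against 34.8% of all genes (14.1% higher and 20.7% lower). Uchl1 was at a median of 192 CPM (0 to 349, 9 of 11 sums with a UMI) and rose by 2.56 (SE 0.25, adjusted p = 1.32e-23). Dmrt1, which Sertoli cells need, was at 28.3 CPM (0 to 293, 7 of 11 sums) and rose by 3.73 (SE 0.49, adjusted p = 3.11e-13), a call lost in 1 of the other settings. In the 9 Sertoli-like cells of the day-7 sort Dmrt1 was at 328 CPM (19 UMIs), while Zbtb16 and Stra8 had 0 UMIs. Stra8 rose by 1.40 (SE 0.58, adjusted p = 0.0436) on 11 UMIs, a call lost without Mlh3 2, Mlh3 5, Mlh3 6 or WT 8 (adjusted p = 0.0776 to 0.226), and Id4 was lower (-2.79, SE 0.25, adjusted p = 2.16e-26).

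In round spermatid-like cells 7 of the 10 genes were called against pachytene-like cells, where 53.3% of all genes were (28.8% higher and 24.5% lower), so the share is near the background. The number was 4 with DESeq2 or with filterByExpr and 3 in wild-type libraries alone, and the 53.3% is the share of the main fit, not of these settings. Sohlh1 went from a median of 0 to 3.29 CPM (12 of 15 sums with a UMI) and rose by 3.11 (SE 0.60, adjusted p = 5.57e-07). Gfra1 stood at 4.31 CPM (12 of 15 sums) and rose by 2.23 (SE 0.45, adjusted p = 2.43e-06). Kit, from which a truncated transcript is known in spermatids, stood at 4.84 CPM (12 of 15 sums) and rose by 1.86 (SE 0.41, adjusted p = 1.87e-05). With cells kept by UMI and gene number alone the values were 5.10 for Sohlh1, 3.39 for Gfra1 and 3.15 for Kit, and at Leiden resolution 1 Sohlh1 gave 4.23. In wild-type alone Kit gave 3.97 and Sohlh1 3.85, and Gfra1 was not called (1.87, adjusted p = 0.0525). 3′ tags do not tell the truncated from the full-length Kit transcript.

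Nanos3 also rose (1.60, SE 0.60, adjusted p = 0.0164), with a median of 1.51 CPM there and 2.24 CPM in meiotic division-like sums, while Id4, Stra8 (-1.30, SE 0.47, adjusted p = 0.0124) and Uchl1 (-0.72, SE 0.24, adjusted p = 0.00571) were lower. Without Cul4a 2 the calls of Nanos3 (adjusted p = 0.106), Stra8 (0.0805) and Uchl1 (0.394) were lost, and Stra8 was also lost without Cul4a 1 (0.159). The direction of Uchl1 turned with cells kept by UMI and gene number alone, where it was called higher (0.67, adjusted p = 0.0131), and in wild-type alone (0.38, adjusted p = 0.532). In elongating spermatid-like sums Sohlh1 had a median of 3.51 CPM (0 to 14.7, 9 of 15 sums), with 58 of its 71 UMIs there in the Cul4a-/- libraries, and in meiotic division-like sums, between pachytene and round spermatids, it had 2 UMIs in 17 sums. Spermatogonia-like sums had 102 to 371 CPM of Sohlh1, above every spermatid-like sum. Free RNA in droplets was not measured apart from these levels.

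In whole testis, the libraries labelled Mlh3-/- differed from wild-type in 8 of the 10 genes, 7 of them higher, by edgeR's quasi-likelihood test over 23386 genes (Benjamini-Hochberg adjusted p under 0.05). That test called 60.5% of all genes, 32.3% higher and 28.1% lower, and the median log2 fold change was 1.44 over the 10 genes and 0.17 over all genes. In whole testis, a higher level of a transcript and a larger share of the cells that carry it cannot be told apart. Spermatogonia-like cells made up 0.235% to 9.56% of filtered cells in Mlh3-/- (median 1.57%) and 0.0337% to 1.02% in wild-type (median 0.135%). Leydig-like cells made up 4.97% to 90.6% (median 10.2%) against 0% to 0.731% (median 0.135%), and Sertoli-like cells 0% to 26.5% (median 4.99%) against 0.201% to 1.64% (median 0.457%). Mitochondrial transcripts took 4.55% to 13.4% of UMIs against 0.517% to 1.72%, and the part of each of these differences in the gene levels was not tested on its own. With only the cells that passed the cell filters 7 genes were called (6 higher). With the named somatic classes also left out, and unnamed cells kept, 5 were (4 higher). Calls over all genes fell as well, from 14145 to 12228 and 10365 in these 2 settings.

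Kit had the highest fold change of the 10 genes over all barcodes, though not in filtered cells, where Stra8 gave 2.31. It ran from 14.8 to 73.2 CPM with a median of 31.4 in the 6 Mlh3-/- libraries and from 0 to 3.92 CPM in wild-type, with no overlap (log2 fold change 3.06, SE 0.31, adjusted p = 4.05e-10). Zbtb16 ran from 4.42 to 19.97 CPM with a median of 9.64 against at most 2.35 CPM, again with no overlap (2.28, SE 0.36, adjusted p = 1.59e-06). How many of all genes separate these groups without overlap was not counted, and 60.5% of all genes were called. In filtered cells Kit gave 2.13 (adjusted p = 9.72e-06) and Zbtb16 1.92 (adjusted p = 0.000969). Kit gave 2.44 among HiSeq libraries of mechanical dissociation and 2.46 without Mlh3 3, and was called in both. When Leydig-, Sertoli-, telocyte- and macrophage-like cells and unfiltered barcodes were left out, Kit gave 0.71 (adjusted p = 0.244) and Zbtb16 1.07 (adjusted p = 0.157), and neither was called.

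Stra8 ran from 9.96 to 186 CPM with a median of 31.0 and rose by 2.43 (SE 0.54, adjusted p = 0.000296), Dmrt1 from 7.57 to 120 CPM with a median of 23.9 and rose by 2.23 (SE 0.36, adjusted p = 3.06e-06), and Uchl1 from 29.5 to 151 CPM with a median of 41.9 and rose by 1.35 (SE 0.30, adjusted p = 0.000320). All 3 overlapped wild-type, whose highest values came from the enzymatic libraries, and all 3 kept their calls in filtered cells outside the named somatic classes (log2 fold changes 2.24, 1.34 and 0.84). That setting kept the unnamed cells, which were 909 of the 2786 filtered cells in Mlh3-/-. An unnamed cluster of 1451 cells over all libraries scored highest for Sertoli markers, so the setting need not remove all somatic RNA. Dmrt1 gave 1.44 among HiSeq libraries of mechanical dissociation, and with Mlh3 2 and Mlh3 3 merged Dmrt1 gave 1.63 and Stra8 1.77, with the calls kept. Id4 ran from 84.2 to 171 CPM with a median of 135, above all wild-type libraries, and rose by 0.95 (SE 0.20, adjusted p = 0.000122). The share of all genes that lie above all wild-type libraries was not counted. Pachytene-like cells, which held 70.7% of the Id4 UMIs of filtered cells in Mlh3-/- and 26.0% in wild-type, where unnamed cells held 49.4%, made up 5.63% to 51.6% of filtered cells in Mlh3-/- against 0% to 5.12% in wild-type.

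Lin28a rose by 1.53 (SE 0.67, adjusted p = 0.0435) on 15 UMIs in Mlh3-/- and 6 in wild-type, a call lost on leaving out any of 13 of the 21 libraries in turn (adjusted p = 0.0526 to 0.190, the highest without Mlh3 5). Gfra1 fell by 1.11 (SE 0.35, adjusted p = 0.00764), from 0.921 to 3.56 CPM in Mlh3-/- against 0 to 5.22 CPM in wild-type. With library totals in place of TMM factors it gave -0.65 (adjusted p = 0.109). Nanos3 (-0.83, SE 0.53, adjusted p = 0.177) and Sohlh1 (0.37, SE 0.37, adjusted p = 0.397) were not called. Among HiSeq libraries of mechanical dissociation alone, 8 genes were again called, with Nanos3 lower (-1.40, adjusted p = 0.0212) in the place of Lin28a (0.82, adjusted p = 0.277). Of all genes 13802 were called there. With Mlh3 2 and Mlh3 3, which share an age, merged into 1 library, Nanos3 was called lower (-1.14, adjusted p = 0.0476) and Lin28a was not called (1.25, adjusted p = 0.0727).

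**Figure D5:**
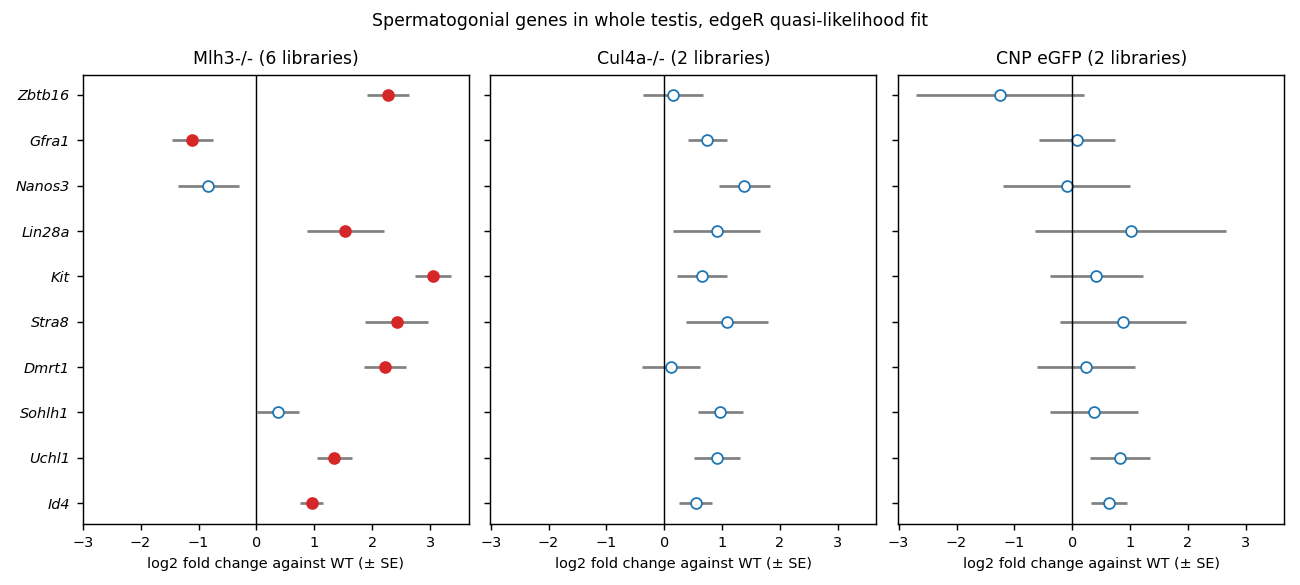
Log2 fold changes against wild-type whole testis (edgeR's quasi-likelihood fit). Bars give the SE derived from the fold change and the F value. Filled red points passed an adjusted p of 0.05 and open blue points did not. In Mlh3-/- 7 genes lie above 0 and Gfra1 below it among the calls, and in the other strains 0 genes were called.

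In the Cul4a-/- libraries 0 of the 10 genes were called, against 4.17% of all genes (3.47% higher and 0.701% lower), and DESeq2 also called 0. At an unadjusted p under 0.05 there were 4: Nanos3 (1.38, SE 0.44), Sohlh1 (0.97, SE 0.39), Uchl1 (0.92, SE 0.40) and Gfra1 (0.74, SE 0.33), all higher. Of all 23386 genes 4312 had such a p. Nanos3 was at 3.80 and 4.75 CPM, inside the wild-type range of 0 to 5.60 CPM (adjusted p = 0.0671) but above the 0 to 2.49 CPM of the mechanical wild-type libraries. Nanos3 was called without WT 1, WT 2, Mlh3 2, Mlh3 4 or Mlh3 6. Among HiSeq libraries of mechanical dissociation 3 genes were called (Nanos3, Stra8 and Uchl1), beside 2600 of all genes. Stra8 was at 11.5 and 13.0 CPM in Cul4a-/-, above the 1.17 to 8.78 CPM of the mechanical wild-type libraries and below the 25.03 and 47.6 CPM of the enzymatic ones. Uchl1 was at 26.5 and 26.7 CPM, between the 6.21 to 15.8 CPM of the mechanical and the 39.3 and 42.0 CPM of the enzymatic ones. How many of all genes separate in this way was not counted.

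In the CNP eGFP BAC TRAP libraries 0 of the 10 genes were called by edgeR, against 0.552% of all genes (0.0898% higher and 0.462% lower), and 0 by DESeq2. At an unadjusted p under 0.05 there were 0, against 2060 of all 23386 genes, in these libraries. Their largest fitted difference among the 10 was -1.25 for Zbtb16 (SE 1.45), on 1 UMI over both libraries, and for Id4, at 60.6 and 96.7 CPM, it was 0.63 (SE 0.32, adjusted p = 0.574). The derived SE of the 10 genes ran from 0.32 to 1.65.

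Other genes of the pathway are given by list, and those named for the sort were chosen after their values were seen. Of the list for the undifferentiated state, which holds GDNF targets such as Etv5 and the receptor Ret, 19 of the 22 genes compared were at least 4-fold higher in the day-7 sort and 0 lower, with a median log2 fold of 5.03 against 0.51 over all genes. Ret was at 19.7 CPM in the sort on 23 UMIs, against 3 UMIs in the 11 wild-type libraries. Sall4, a zinc finger factor of the stem pool, was at 93.3 CPM against a mean of 0.562 CPM. Id1, Id2 and Id3, the relatives of Id4, were at 16.3, 33.4 and 20.5 CPM in the sort and at means of 0.295, 1.53 and 0.364 CPM in wild-type testis.

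Of the list for differentiation and meiotic entry, 11 of the 15 genes compared were at least 4-fold higher in the sort and 2 lower (median log2 fold 2.99). Crabp1, a retinoic acid binding protein, was at 464 CPM against 1.63 CPM, and Dazl, an RNA-binding protein of germ cells, at 1969 against 57.0 CPM. The 2 lower genes were Dmrtb1 (59.9 against 770.2 CPM), which acts at the switch to meiosis, and Rec8 (11.1 against 45.8 CPM), a meiotic cohesin. Of the niche ligands and retinoic acid enzymes, 5 of 14 were higher and 1 lower (median 1.38), a share near the 32.8% of all genes that were higher.

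Within adult testis, where 7.56% of all genes were higher and 16.3% lower in spermatogonia-like cells, 7 of 21 genes of the undifferentiated list rose over pachytene-like cells and 0 fell, led by Sall4 (6.70, SE 0.80, adjusted p = 2.93e-15), Taf4b (2.85, SE 0.45, adjusted p = 3.45e-09) and Upp1 (6.04, SE 1.16, adjusted p = 2.27e-06). Of the differentiation list 7 of 15 rose and 4 fell, with Crabp1 the clearest rise (7.50, SE 0.43, adjusted p = 3.52e-64) and Tex101 (-2.83, SE 0.24, adjusted p = 4.54e-29) and Dmrtb1 (-2.95, SE 0.28, adjusted p = 4.59e-24) the clearest falls. In leptotene/zygotene-like cells, with 6.28% of all genes higher and 13.3% lower, 8 of 15 rose and 3 fell, led by Prss50 (5.11, SE 0.24, adjusted p = 1.37e-100), Dazl (2.57) and Rhox13 (5.37), while the undifferentiated list had 1 higher (Taf4b) and 1 lower of 21.

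Of the niche list, 5 of 15 genes rose and 2 fell in Sertoli-like cells, where 14.1% of all genes rose and 20.7% fell, and 7 rose and 2 fell in Leydig-like cells, where 15.6% and 17.9% did. The KIT ligand gene Kitl rose in Sertoli-like cells by 3.61 (SE 0.39, adjusted p = 1.33e-18), and the chemokine gene Cxcl12 rose in Leydig-like cells by 6.51 (SE 0.32, adjusted p = 3.79e-91). In Mlh3-/- testis 11 of 23 undifferentiated, 9 of 15 differentiation and 8 of 15 niche genes rose, and 2 of each list fell, beside 32.3% of all genes that rose and 28.1% that fell. The median log2 fold changes were 1.49, 1.16 and 2.79. Among the niche genes Csf1 rose by 4.80 and Cxcl12 by 4.55. Among the differentiation genes Rec8 fell by -5.59 (SE 0.33, adjusted p = 2.57e-16), a gene that rose by 5.78 (SE 0.28, adjusted p = 2.56e-90) in round spermatid-like over pachytene-like cells, a class without cells in these libraries.

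In Cul4a-/- testis, where 3.47% of all genes rose and 0.701% fell, 1 of 23 undifferentiated, 5 of 15 differentiation and 1 of 15 niche genes rose and 0 fell, led by Utf1 (3.05, SE 0.42, adjusted p = 3.17e-06), and Dazl (1.16, SE 0.25, adjusted p = 0.00515). In CNP eGFP testis, where 0.0898% of all genes rose and 0.462% fell, 2 of 15 differentiation genes rose (Tex101 and Dazl, by 1.48 and 1.28) and 0 genes of the other lists were called. In the class contrasts 21, 15 and 15 genes of these lists were tested. In round spermatid-like cells, with 28.8% of all genes higher and 24.5% lower, the 3 lists had 2, 3 and 2 genes higher and 3, 7 and 1 lower. In Sertoli-like cells (14.1% higher and 20.7% lower over all genes) the first 2 lists had 2 and 3 higher and 3 and 6 lower, and in Leydig-like cells (15.6% and 17.9%) 5 and 0 higher and 2 and 6 lower. In the niche list 2 genes rose and 2 fell in spermatogonia-like cells, and 1 rose and 1 fell in leptotene/zygotene-like cells.

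The genes whose pattern was most like each of the 10 were named by Pearson's r of log2(CPM + 10) over 103 sums, those of library and class plus the sorted spermatogonia, among 10976 genes. The sums share libraries and differ in depth, and the values are a description. Stra8 was closest to Tex13 (r = 0.94), Elavl2 (0.93) and Ctps (0.92), and Lin28a to Cdca7 (0.91), Crabp1 (0.90) and Sohlh1 (0.90). Sohlh1 was closest to Crabp1 (0.88), Cenpa (0.87) and Cdca7 (0.87), and Nanos3 to Foxr1 (0.80), Mcm2 (0.78) and Crabp1 (0.78).

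Among the genes closest to Kit were Hsd17b7 (0.88), an enzyme of cholesterol synthesis, and Psme1 (0.85). Zbtb16 was closest to Ccnd2 (0.79), Fbxl6 (0.73) and Csnk1e (0.72), Dmrt1 to Gsr (0.79), Cdca7 (0.78) and Mcm2 (0.78), and Uchl1 to Marcksl1 (0.78), Crlf3 (0.77) and Hmgb3 (0.75). Id4 was closest to the germ cell genes Psma8 (0.79), Tdrd12 (0.78) and Adad2 (0.77). Gfra1 had no close match, with Zfp286it at 0.48, Gm6880 at 0.47 and Rhebl1 at 0.47.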

How the data were processed

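Testis cells were profiled by Drop-seq in 25 libraries, and the samples were grouped by the labels. Per the labels and methods, the authors demultiplexed reads with bcl2fastq, aligned them with STAR 2.5.3a to the mouse genome (GRCm38, mm10) and deposited raw UMI counts per gene and cell barcode, which bring no normalisation. The tables list a limited number of barcodes per library, so droplets outside it do not enter the totals. The strand setting of the counting is not given in the sources used here.

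The 10 genes and the pathway lists were chosen with earlier results of these data known. For strain comparisons, counts of all barcodes were summed per library and fitted over all 21 whole-testis libraries with edgeR 4.0.16 (R 4.3.3; glmQLFit, glmQLFTest, TMM, genes of at least 5 counts), with Benjamini-Hochberg adjustment over all genes and a threshold of 0.05. Cells were kept with at least 200 UMIs and 50 genes, no more than 1 SD below their library's mean, and normalised mt-Rnr2 of at most 2. They were clustered with leidenalg 0.10.2 (resolution 2, 40 components, 20 neighbours) without the 10 genes and lists. No doublet caller was run. Clusters were named from fixed markers. Classes were compared over sums of at least 10 cells per library with library as a block and TMM factors of each class, from counts pooled over libraries, because factors of single sparse sums performed poorly on simulated data. Sums without UMIs of a gene leave its fold change to the prior count. The quasi-likelihood test returns no standard error, so SE is the absolute log2 fold change over the square root of F. DESeq2 1.42.0 and other settings were run as alternatives.

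The day-7 sort, a single library, was set against the mean of the wild-type libraries by a 4-fold rule with a floor of 3 counts over a group where that group had 0 UMIs, and intervals are 95% exact Poisson or binomial. Named genes were the 10 genes throughout, the 3 genes closest to each by Pearson's r, and up to 3 genes per pathway list and test of smallest adjusted p, beside each list's counts. Sequencing platform was read from the methods. Promoters came from RefSeq. Some genes that this rule named are not reported here.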

Additional observations from a re-analysis of the deposited data

Results flagged for a closer look

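In 16 of 37 groups of 4 to 10 values tested, 1 library lay far from the others by Dixon's criterion. In 7 of the 16 every other value was 0, so the criterion was met by any count there, and the rate of about 1 in 20 groups that chance gives for continuous values is no guide to these sparse counts. Values of a gene in a library are not independent of those of the other genes there. Among the 6 Mlh3-/- libraries Mlh3 2 was the highest for 8 genes and stood apart by this criterion for 5: Nanos3 at 6.66 CPM (next highest 2.33), Lin28a at 6.66 CPM (next 1.60), Stra8 at 186 CPM (next 62.1), Sohlh1 at 22.2 CPM (next 9.32) and Uchl1 at 151 CPM (next 58.9). Of its filtered cells 9.56% were spermatogonia-like, 8.09% leptotene/zygotene-like and 26.5% Sertoli-like, each the highest share of the 6. Mlh3 2 was also the smallest of these libraries, with 298 barcodes and 450745 UMIs. For how many of all genes it was the highest was not counted, and the part of these traits in its levels was not tested.

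Among the 9 Leydig-like sums, Mlh3 1 stood apart for Gfra1, Nanos3 and Lin28a, each at 1.86 CPM on 1 UMI with the other sums at 0. Mlh3 3 stood apart for Stra8 at 87.7 CPM (next 20.4) and Dmrt1 at 58.5 CPM (next 26.0), and Cul4a 1 for Sohlh1 at 17.6 CPM (next 5.57).

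Among the 10 leptotene/zygotene-like sums, Cul4a 2 was the only sum with Gfra1 (16.9 CPM), Kit (16.9 CPM) and Sohlh1 (50.6 CPM), and WT 6 was the highest for Dmrt1 (109 CPM, next 50.6). Among the 5 adult spermatogonia-like sums, Cul4a 1 was the only sum with Gfra1 (23.6 CPM, 1 UMI).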

How the results depend on the processing

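Of the values recomputed under settings other than leaving out a library, 657 stayed on their side of the threshold (49 of them uncalled values of the other sign), 31 lost a call, 30 gained a call, 9 changed sign with a call in either fit (or, for Id4 in the sort, untested), and 12 untested folds moved. With a library left out 1346 stayed (28 uncalled values of the other sign), 24 lost a call, 9 gained one and 1 changed sign. The cause of these changes was not tested. The settings that left out the somatic classes together with unfiltered barcodes, that took library totals as library sizes, that set TMM on each sum and that took the enzymatic wild-type libraries alone were chosen after seeing the data.

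The number of the 10 genes called in Mlh3-/- was 7 in filtered cells and 5 in filtered cells outside the somatic classes, in place of 8 over all barcodes. In Cul4a-/- it was 1 with platform as covariate (1074 of all genes) and 3 among HiSeq libraries of mechanical dissociation (2600 of all genes), in place of 0. In leptotene/zygotene-like cells it was 9 with DESeq2, of which Zbtb16, Gfra1, Nanos3 and Kit rest on 0 or 1 UMIs there, and 2 in wild-type libraries alone, in place of 4. In Sertoli-like cells it was 8 with DESeq2 and 2 in wild-type alone, in place of 4. In Leydig-like cells it was 5 with DESeq2, 5 without the library block and 6 with the UMI and gene filter alone, in place of 3. In round spermatid-like cells it was 4 with DESeq2, 4 with filterByExpr and 3 in wild-type alone, in place of 7. Calls over all genes in these settings are not given here for Leydig-like or round spermatid-like cells, nor for Sertoli-like cells with DESeq2. Those counts therefore have no share of all genes beside them. Leaving out each library gave 7 to 8 calls in Mlh3-/-, 0 to 1 in Cul4a-/-, 0 in CNP eGFP, 9 in spermatogonia-like, 2 to 4 in leptotene/zygotene-like, 3 to 5 in Sertoli-like, 3 in Leydig-like and 4 to 7 in round spermatid-like cells. For the classes only the 15 libraries with a spermatogonia-, leptotene/zygotene-, Sertoli- or Leydig-like sum were left out in turn.

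With DESeq2 the fitted values were above 0 for Zbtb16 (3.22), Nanos3 (3.48) and Kit (2.49) in leptotene/zygotene-like cells and for Gfra1 (2.56) in Sertoli-like cells, on 0, 0, 1 and 1 UMIs, so that these 4 show no change of direction. Directions turned for Sohlh1 in leptotene/zygotene-like cells in wild-type alone (-0.040) and without Cul4a 2 (-0.80, and up to 3.77 without another library). They turned for Id4 there with the UMI and gene filter alone (0.19), and for Uchl1 in round spermatid-like cells in wild-type alone (0.38) and with the UMI and gene filter alone (0.67, adjusted p = 0.0131, called by edgeR). Against mechanical wild-type libraries alone the log2 folds of the day-7 sort were 5.26 for Nanos3, 7.38 for Stra8, 6.94 for Dmrt1 and 6.31 for Uchl1. Against the enzymatic ones alone they were 3.46 for Nanos3, 3.96 for Stra8, 6.34 for Dmrt1 and 4.45 for Uchl1, with the other genes on 0 to 3 wild-type UMIs (8.98 for Zbtb16, 6.67 for Kit, 7.65 for Sohlh1, and at least 4.58 for Lin28a in place of 8.08), and Id4 turned to 1.00.

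Over all genes, 14145 were called in Mlh3-/-, against 12228 in filtered cells and 10365 in filtered cells outside the somatic classes. In Cul4a-/- 975 were called, against 2600 among HiSeq libraries of mechanical dissociation and 204 with the replicate block. In CNP eGFP 129 were called, against 575 with DESeq2, 339 among those HiSeq libraries and 335 with the block. In leptotene/zygotene-like cells 4292 were called, against 7812 with DESeq2 and 1877 in wild-type alone, and in Sertoli-like cells 7604 against 2035 in wild-type alone.

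Replicate numbers did not pair the samples: over 10 pairs of the same number the correlation of deviations ran from -0.227 to 0.246, was over 0.1 in 3, and 2 libraries correlated best with their own number. With the replicate block 6 of the 10 genes were called in Mlh3-/-, where Gfra1 gave -0.62 (adjusted p = 0.313 by edgeR) and Lin28a 1.54 (adjusted p = 0.207), and 0 in the other strains. Over all genes the block gave 11369 calls in Mlh3-/-, against 14145 without it.

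Spermatogonia-like sums came from 5 libraries, none of them wild-type, so there is no value in wild-type alone or from sums of at least 20 cells, and Leydig-like sums gave none in wild-type alone. The day-7 sort is 1 library.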
